A study of Mus musculus with 6 samples.

Results

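A set of 10 genes of the bone-forming lineage were followed in RNA sequencing of mouse articular cartilage of 2 ages. The genes were chosen by name (Ibsp, Spp1, Bglap, Bglap2, Alpl, Sp7, Dmp1, Phex, Sost and Mepe), and all 10 were found among the 33971 genes of the table. Each passed the filter on low counts, which 20397 genes passed. The samples were 3 libraries of articular cartilage from wild-type mice aged 2 months and 3 from wild-type mice aged 18 months, with no treatment named in the labels. The study's methods describe male mice, the strain is not given in the sources used here, and nothing states whether each library came from 1 animal or from a pool. P-values therefore measure the spread between these libraries, which may be technical. The comparison asks how cartilage of aged mice differs from that of young mice in these genes.

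Osteoblasts build bone by secreting a collagen matrix and then mineralising it, and some of them become buried in that matrix as osteocytes. Sp7 (osterix) acts with Runx2 as a transcription factor of osteoblast formation. Alpl is the phosphatase that clears an inhibitor of mineralisation. Ibsp (bone sialoprotein), Spp1 (osteopontin), Dmp1 and Mepe are secreted phosphoproteins of 1 family that bind mineral, while Bglap and Bglap2 encode osteocalcin. Phex is a membrane protease, mainly of osteoblasts and osteocytes, that restrains the phosphate hormone Fgf23. Sost encodes sclerostin, a Wnt inhibitor best known from osteocytes. Several of these genes are not private to bone: hypertrophic chondrocytes, the cells at the base of cartilage, also make Alpl, Ibsp, Spp1 and Sp7. Joint cartilage lies directly on bone, so a sample of it can hold bone cells as well.

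All 10 genes were measured deeply. The 2-month libraries held 48171507 to 51683577 counts and the 18-month libraries 55201357 to 59085179. The least abundant member, Phex, still had 717 to 9118 counts per library at 2 months and 1904 to 2170 at 18 months. Libraries of the same age differed by more than counting noise, by a median chi-square of 6.47 times that expected between 18-month replicates 2 and 3 and of 12.6 to 45.2 times for the other pairs, so all 6 were kept as separate samples. Markers of the labelled tissue, 16 chondrocyte genes, took 4.57% to 7.08% of counts at 2 months and 0.0633% to 0.169% at 18 months. Xist, the RNA of the inactive X chromosome, had 88239 to 102417 counts at 2 months and 11 to 30 at 18 months. That goes against the stated sex for the 2-month libraries, and age and this sex pattern cannot be told apart for any gene below.

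Of the 10 bone genes, 4 were lower at 18 months and none was called higher. Alpl, Ibsp, Sp7 and Spp1 were called lower at 18 months. A call required a Benjamini-Hochberg adjusted p below 0.05 over all genes tested and a log2 fold change above 1 or below -1 in edgeR's quasi-likelihood test. The same rule called 36.3% of all genes tested, 21.3% lower and 14.9% higher. The 4 genes were also the ones with every 18-month library below every 2-month library, a pattern that 32.9% of all genes tested shared, whereas 35.6% showed the opposite order and no bone gene did. At an unadjusted p below 0.05 there were 4 of the 10, all of them lower, beside 12025 of the 20397 genes tested. Neither DESeq2 nor limma on log2(FPKM + 0.1) called any bone gene higher, while each called 3 lower. In either direction, DESeq2 called 9556 and limma 8624 of all genes. DESeq2 gave no adjusted p for Bglap2 and Phex, so it could not call these genes in either direction. The median log2 fold change of the 10 was -0.84, beside -0.02 over all genes tested. An exact permutation test of 3 libraries against 3 cannot give a p below 0.1.

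**Figure D1:**
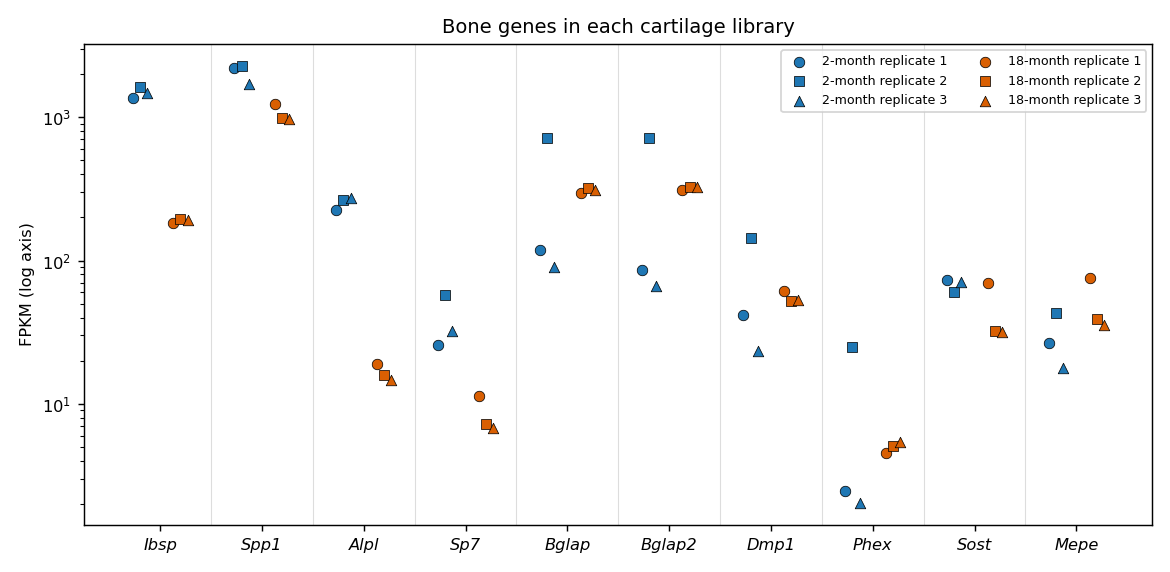
FPKM of the 10 bone genes (log axis) in each of the 6 libraries, with 2-month libraries in blue and 18-month libraries in orange and the marker shape giving the replicate. Ibsp, Spp1, Alpl and Sp7 had every 18-month library below every 2-month library. For Bglap, Bglap2, Dmp1 and Phex the 18-month libraries lay between 2-month replicate 2 and the other 2-month libraries. Replicate 2 of the 2-month libraries was the highest library for these genes and also for Ibsp, Spp1 and Sp7.

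Alpl, the mineralising phosphatase, fell the furthest. It had 226.5, 265.6 and 273.2 FPKM (a level scaled by gene length and by the library's depth) in 2-month replicates 1, 2 and 3, against 19.0, 15.8 and 14.6 in the 18-month libraries. The groups were far apart, with means of 255.1 ± 25.04 (SD, n = 3) in the young and 16.5 ± 2.28 (SD, n = 3) in the aged libraries. Its log2 fold change was -4.03 (SE 0.18, adjusted p = 0.000706), a 16.3-fold lower level. By mean FPKM its place among the bone genes was 5 at 2 months and 8 at 18 months. It was above Bglap and Bglap2 in 2-month replicates 1 and 3, and below both in 2-month replicate 2.

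Ibsp, bone sialoprotein, had 1360, 1621 and 1484 FPKM in the 2-month libraries and 182, 194 and 192 in the 18-month libraries. The groups were far apart, with means of 1489 ± 131 (SD, n = 3) in the young and 189.7 ± 6.44 (SD, n = 3) in the aged libraries. The log2 fold change was -3.05 (SE 0.19, adjusted p = 0.000751), an 8.26-fold lower level. Ibsp ranked from 22 to 23 among all genes by FPKM in the 2-month libraries and from 186 to 221 in the 18-month libraries.

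Sp7, the osteoblast transcription factor, was the least abundant of the 4. It had 25.8, 57.3 and 32.4 FPKM at 2 months and 11.4, 7.22 and 6.73 at 18 months, so the lowest young library was still more abundant than the highest aged library. The log2 fold change was -2.25 (SE 0.34, adjusted p = 0.00388), a 4.76-fold lower level. For Alpl, Ibsp and Sp7 the call was kept in all 18 alternative analyses.

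Spp1, osteopontin, was the most abundant bone gene at both ages and lay at the edge of the rule. Its level was 2219, 2285 and 1701 FPKM in the 2-month libraries and 1247, 983 and 970 in the 18-month libraries, which did not overlap. The log2 fold change was -1.03 (SE 0.23, adjusted p = 0.0135), a 2.05-fold lower level. The call was lost in 12 of 18 alternatives, with log2 fold changes of -0.95 to -1.03 there, all lower at 18 months. The adjusted p was above 0.05 in 4 of them, namely 0.0668 without 18-month replicate 2, 0.0674 without 18-month replicate 3, 0.066 with these 2 libraries summed and 0.474 when edgeR tested against a fold change of 2. Leaving out a young library moved the log2 fold change to -0.95 (replicate 1) and -0.98 (replicate 2), inside the fold limit.

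The osteocalcin genes did not follow this pattern. Bglap had 118, 714 and 90.0 FPKM in 2-month replicates 1, 2 and 3 and 295, 319 and 310 in the 18-month libraries. Every 18-month library thus lay between 2-month replicate 2 and the other 2-month libraries. The young libraries had a mean of 307.2 ± 352.5 (SD, n = 3) and the aged ones of 307.9 ± 12.5 (SD, n = 3), and the log2 fold change was -0.01 (SE 0.77, adjusted p = 0.99).

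Bglap2 repeated it, with 85.3, 712 and 65.9 FPKM at 2 months and 309, 328 and 324 at 18 months (log2 fold change 0.15, SE 0.89, adjusted p = 0.902). The standard errors leave room for a difference in either direction. Bglap and Bglap2 are neighbours in a cluster of 3 genes at chr3:88368616-88384464, which spans 15.8 kb and also holds Bglap3. Their annotated transcripts shared 434 of 440 aligned bases (98.6%), and 31.6% of the 150-base windows of Bglap occurred unchanged in Bglap2. The counting could have divided reads between them, so their separate values are uncertain. The ratio of Bglap to Bglap2 in FPKM was 1.38, 1.0 and 1.37 at 2 months and 0.953, 0.973 and 0.957 at 18 months. Bglap3, for which no 150-base window of the other pair matched, had at most 29 counts in a 2-month library and 29 to 56 in the 18-month libraries.

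The osteocyte genes Dmp1 and Phex placed the aged libraries in the same way. Dmp1 reached 41.5, 144 and 23.3 FPKM in the 2-month libraries and 60.8, 52.1 and 52.8 in the 18-month libraries (log2 fold change -0.36, SE 0.62, adjusted p = 0.648). Phex had 2.45, 24.8 and 2.03 FPKM at 2 months and 4.50, 5.11 and 5.41 at 18 months (log2 fold change -0.97, SE 0.96, adjusted p = 0.429). In both genes the aged libraries lay between 2-month replicate 2 and the rest of the young libraries. Phex lies on the X chromosome, at chrX:157162075-157415286. Any part of the difference in Xist in the values of Phex was not tested.

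Sost and Mepe, the remaining osteocyte genes, differed from the others in which library stood out. Sost had 72.9, 60.3 and 70.9 FPKM at 2 months and 69.3, 32.3 and 31.9 at 18 months (log2 fold change -0.71, SE 0.33, adjusted p = 0.121). Its 18-month replicate 1 fell inside the range of the young libraries, while 18-month replicates 2 and 3 lay below it. Mepe had 26.5, 42.8 and 17.9 FPKM at 2 months and 75.7, 39.0 and 35.6 at 18 months (log2 fold change 0.72, SE 0.39, adjusted p = 0.172). Again 18-month replicate 1 was the highest aged library, and 2-month replicate 2 lay above 18-month replicates 2 and 3.

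A pair of libraries therefore decided which of the 6 uncalled genes were called. With 2-month replicate 2 left out, Bglap rose (log2 fold change 1.48, SE 0.15, adjusted p = 0.000614), as did Bglap2 (1.99, SE 0.14, adjusted p = 0.000213) and Phex (1.07, SE 0.15, adjusted p = 0.00227). Mepe also passed, at 1.06 (SE 0.36, adjusted p = 0.0472), while Dmp1 did not, at 0.67 (SE 0.24, adjusted p = 0.0555). That made 4 bone genes higher and 3 lower (Ibsp, Alpl and Sp7), beside 23.3% of all genes higher and 21.3% lower in the same fit. With 18-month replicate 1 left out instead, Sost fell, at -1.14 (SE 0.16, adjusted p = 0.00842), and joined the 4 lower genes. That made 5 lower and none higher, beside 20.3% and 11.2% of all genes. The median log2 fold change of the 10 was -0.07 without 2-month replicate 2 and -1.005 without 18-month replicate 1, beside 0.01 and -0.04 over all genes tested.

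**Figure D2:**
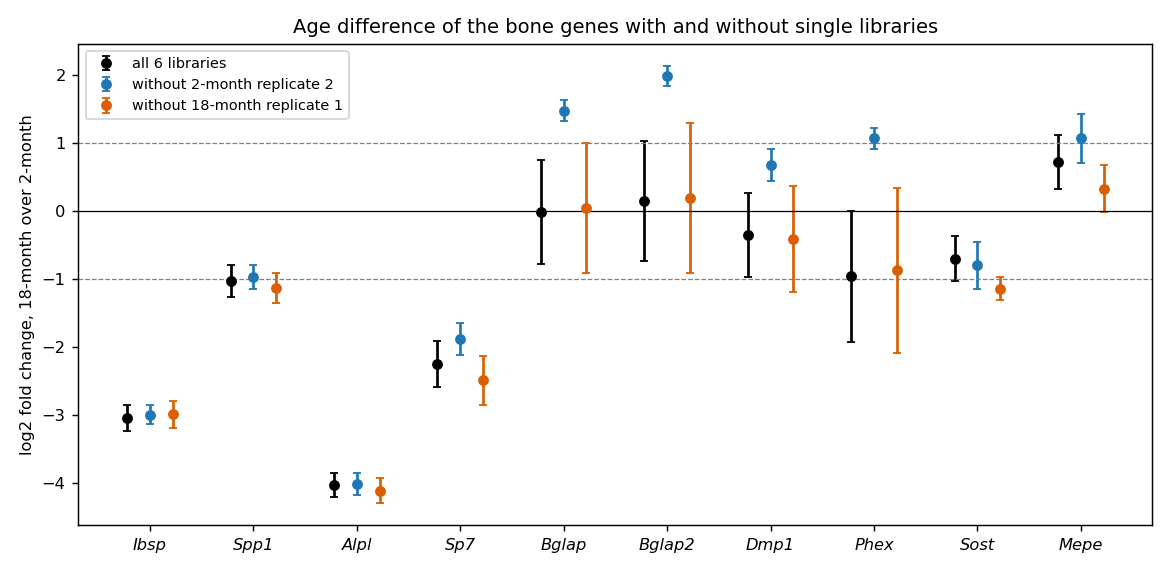
Log2 fold change of each bone gene, 18-month over 2-month, from edgeR with all 6 libraries, without 2-month replicate 2 and without 18-month replicate 1. Bars are standard errors and dashed lines mark the limits of 1 and -1; Bglap, Bglap2 and Phex moved above 1 without 2-month replicate 2, and Ibsp, Alpl and Sp7 stayed below -1 in all 3 fits.

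Levels per length also changed their order between the ages. At 2 months the means ran from Spp1 (2068 FPKM) and Ibsp (1489) down through Bglap (307.2), Bglap2 (287.6) and Alpl (255.1) to Dmp1 (69.5), Sost (68.0), Sp7 (38.5), Mepe (29.1) and Phex (9.75). The ranges of Bglap, Bglap2 and Alpl overlapped at 2 months, as did those of Dmp1 and Sost, of Sp7 and Mepe, and of Mepe and Phex. At 18 months the order was Spp1 (1067), Bglap2 (320.4), Bglap (307.9), Ibsp (189.7), Dmp1 (55.2), Mepe (50.1), Sost (44.5), Alpl (16.5), Sp7 (8.44) and Phex (5.00). There the ranges of Bglap2 and Bglap overlapped, and so did those of Dmp1, Mepe and Sost as neighbours in this order, while the other neighbours were apart. Spp1 remained among the most abundant transcripts of the tissue, at ranks 10 to 18 of all genes in the young and 31 to 32 in the aged libraries.

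Ratios taken within a library, which do not depend on its depth, showed the same contrast. The ratio of Ibsp to Bglap was 11.6, 2.27 and 16.5 at 2 months and 0.619, 0.608 and 0.621 at 18 months. Ibsp was thus more abundant than Bglap in each young library, 2-month replicate 2 included, and less abundant in each aged one. Alpl to Bglap went from 1.93, 0.372 and 3.04 to 0.0646, 0.0495 and 0.0472, again without overlap. By contrast, Dmp1 to Bglap was 0.353, 0.201 and 0.259 at 2 months and 0.207, 0.163 and 0.17 at 18 months, which overlapped. Sost to Dmp1 was 1.76, 0.42 and 3.04 at 2 months and 1.14, 0.62 and 0.605 at 18 months, so the young libraries lay on both sides of the aged ones. Mepe to Dmp1 was 0.639, 0.298 and 0.766 against 1.24, 0.749 and 0.674. These ratios were chosen with the levels known and carry no test.

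**Figure D3:**
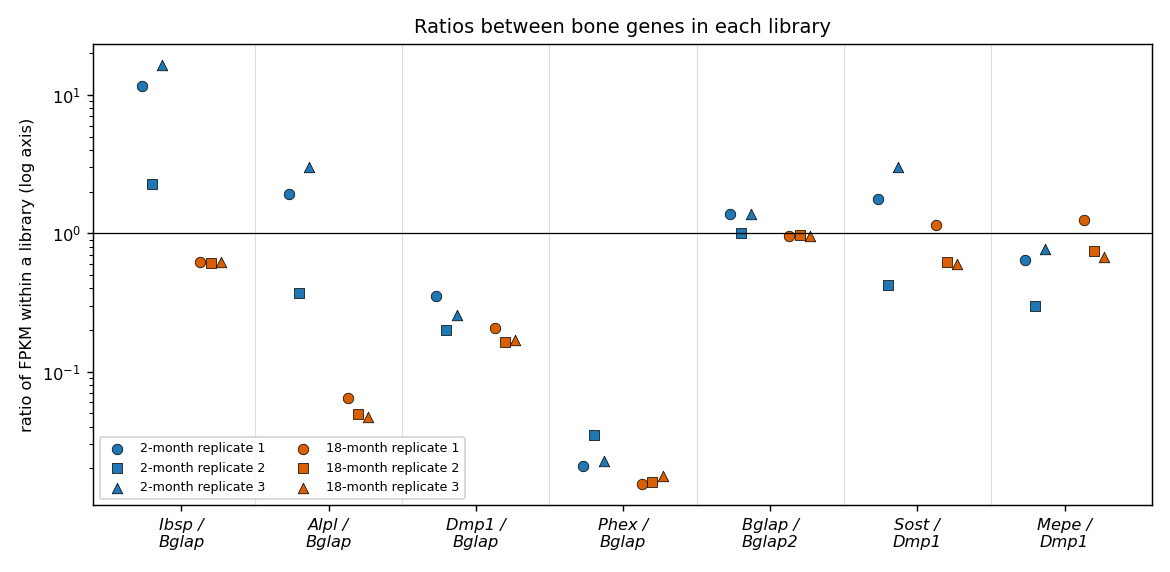
Ratios of FPKM between pairs of bone genes within each library (log axis; the line marks equal levels). Ibsp to Bglap and Alpl to Bglap were lower in every 18-month library than in any 2-month library, whereas Dmp1 to Bglap and Sost to Dmp1 overlapped between the ages.

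To set 2 of these patterns side by side, the DNA before the start site is shown for a pair of genes of each. Alpl and Spp1 were lower in each aged library, and Bglap and Phex had the aged libraries between 2-month replicate 2 and the other young ones. RefSeq windows on GRCm38.p6 were found for 8 of the 10 genes, and not for Bglap2 and Sp7. Alpl, Spp1 and Dmp1 had 2 RefSeq windows each, of which only the one nearest the gene's annotated start was used. Shares over all windows count every window of a gene. Each line gives the 250 bases before the RefSeq start site, read 5′ to 3′ on the gene's strand, and capitals mark matches on either strand to any of 5 motifs. These were the core of RUNX sites, written ACCACA, the TATA box, written TATAAA, the CCAAT box, the GC box, written GGGCGG, and a core shared by homeodomain factors, written CAATTA. Alpl lies at chr4:137796385-137796634 and Spp1 at chr5:104434861-104435110. The Bglap window is chr3:88384467-88384716 and that of Phex chrX:157415287-157415536, both on the minus strand, as is that of Alpl, while Spp1 is on the plus strand.
Alpl: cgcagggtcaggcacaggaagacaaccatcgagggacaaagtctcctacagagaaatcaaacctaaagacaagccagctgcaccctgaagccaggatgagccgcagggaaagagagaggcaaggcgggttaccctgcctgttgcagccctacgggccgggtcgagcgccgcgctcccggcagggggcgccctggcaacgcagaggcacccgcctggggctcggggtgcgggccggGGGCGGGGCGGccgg
Spp1: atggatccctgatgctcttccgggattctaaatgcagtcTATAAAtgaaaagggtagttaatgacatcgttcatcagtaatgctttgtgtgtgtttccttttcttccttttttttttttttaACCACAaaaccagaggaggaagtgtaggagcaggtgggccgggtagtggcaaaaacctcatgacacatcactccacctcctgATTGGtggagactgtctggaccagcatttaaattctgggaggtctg
Bglap: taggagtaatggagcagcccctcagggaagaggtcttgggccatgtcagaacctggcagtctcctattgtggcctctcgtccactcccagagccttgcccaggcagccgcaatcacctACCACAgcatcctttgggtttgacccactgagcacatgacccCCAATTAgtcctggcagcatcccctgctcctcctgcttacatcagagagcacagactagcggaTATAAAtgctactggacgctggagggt
Phex: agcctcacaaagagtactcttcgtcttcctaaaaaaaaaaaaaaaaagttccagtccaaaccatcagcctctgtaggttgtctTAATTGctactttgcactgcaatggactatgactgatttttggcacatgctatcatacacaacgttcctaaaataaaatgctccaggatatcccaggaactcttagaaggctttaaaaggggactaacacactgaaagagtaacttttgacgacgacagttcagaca

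Bglap held a TATA box at bases -27 to -22 before the start site and a RUNX core at -132 to -127, with a CCAAT match at -90 to -86 that overlaps a homeodomain match at -89 to -84. Alpl held neither a TATA box nor a RUNX core in this window, but 2 GC boxes that share a base, between -15 and -5, and 68.4% of its bases were G or C, beside a median of 52.4% over all windows. Spp1 held a RUNX core at -128 to -123, a TATA match far upstream at -211 to -206 and a reverse CCAAT at -46 to -42. Phex had 39.2% G or C and a single match, a reverse homeodomain core at -167 to -162. Over the 8 windows, the RUNX core occurred in 4 (Spp1, Bglap, Dmp1 and Mepe), beside 14.0% of all 32851 windows, and TATAAA in 4 (Ibsp, Spp1, Bglap and Mepe), beside 12.4%. CCAAT occurred in 6 (33.8% of all windows), CAATTA in 3 (7.17%) and GGGCGG in 1 (32.7%). Among the 4 genes shown, the RUNX core was in Spp1 and Bglap and in neither Alpl nor Phex, whereas the homeodomain core was in Bglap and Phex and in neither Alpl nor Spp1. Over the 8 windows the homeodomain core was also in Ibsp, which fell, and was not in Dmp1. A match is a description of letters in this window and not a bound site.

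By position, 4 of the genes are neighbours. Dmp1, Ibsp, Mepe and Spp1 lie in this order within 238 kb at chr5:104202613-104441050, all on the plus strand. Neighbours differed in pattern: Ibsp (chr5:104299171-104311469) fell, Mepe next to it (chr5:104325329-104338611) had a log2 fold change of 0.72, and Dmp1 (chr5:104202613-104214102) one of -0.36. The Spp1 gene (chr5:104435118-104441050) overlaps a transcript model, Gm42793, on the same strand, so reads of the overlap could belong to either. Alpl spans chr4:137741733-137796384, Sp7 chr15:102356606-102366968 and Sost chr11:101962458-101967015. Bglap spans chr3:88383501-88384464 and Bglap2 chr3:88377736-88378699.

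Summed over the 10 genes, bone transcripts took a smaller share of all counts at 18 months. The share was 0.899% (95% Wilson interval 0.896% to 0.901%), 1.12% (1.12% to 1.13%) and 0.865% (0.863% to 0.868%) in the young libraries. At 18 months it was 0.380% (0.379% to 0.382%), 0.316% (0.314% to 0.317%) and 0.312% (0.311% to 0.314%). Such intervals cover counting error only. Most of the summed counts came from Spp1 and Ibsp in every library. In a bulk sample, fewer cells of a type and less RNA per cell cannot be told apart.

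Other cell types moved with these values. A list of 5 hypertrophic chondrocyte genes (Col10a1, Ihh, Pth1r, Panx3 and Mmp13) took 1.04%, 1.09% and 0.972% of counts at 2 months and 0.0991%, 0.0838% and 0.0823% at 18 months. All 5 were called lower, as were all 16 chondrocyte genes, beside 21.3% of all genes. Col10a1, the collagen that defines hypertrophic cells, had 2322, 2098 and 2077 FPKM at 2 months and 142, 19.6 and 18.7 at 18 months. The part of chondrocytes in the fall of Alpl, Ibsp, Sp7 and Spp1 was not tested. In 2-month replicate 2, no hypertrophic gene was above 2 times the mean of 2-month replicates 1 and 3. Of the chondrocyte genes 5 of 16 were, beside 18.3% of all genes.

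Osteoclast and marrow genes stood apart in 2-month replicate 2. A list of 11 osteoclast genes took 0.0154%, 0.632% and 0.113% of counts in the 2-month libraries and 0.297%, 0.342% and 0.342% at 18 months, so the aged libraries again lay between 2-month replicate 2 and the other young ones. Ctsk, the collagen-degrading protease of osteoclasts, had 32.0, 933 and 211 FPKM at 2 months and 440, 546 and 534 at 18 months. Neutrophil genes, 12 in number, took 0.00127%, 0.369% and 0.0058% at 2 months and 4.13%, 4.46% and 4.42% at 18 months, and 10 erythroid genes 0.0248%, 0.666% and 0.0698% against 2.72%, 3.59% and 3.58%. A list of 10 macrophage genes took 0.00305%, 0.116% and 0.0195% against 0.807%, 0.617% and 0.619%. Above 2 times the mean of 2-month replicates 1 and 3 in 2-month replicate 2 were 10 of 11 osteoclast, 9 of 10 macrophage, 12 of 12 neutrophil and 10 of 10 erythroid genes. So were 15 of 28 other osteoblast and osteocyte, 5 of 8 skeletal muscle and 4 of 6 marrow stroma and adipocyte genes. Of the fibroblast and tendon genes 2 of 8 were. Among the bone genes there were 4 of 10 (Bglap, Bglap2, Dmp1 and Phex), beside 18.3% of all genes. Sp7, at 1.97 times, and Mepe, at 1.93 times, lay just under this limit.

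In the lists' own tests, 1 osteoclast gene (Itgb3) was called higher at 18 months and none lower, beside 14.9% and 21.3% of all genes. At an unadjusted p below 0.05 there was 1 of 11, beside 12025 of the 20397 genes tested. Without 18-month replicate 1 no osteoclast gene was called, beside 11.2%. Of the macrophage genes 6 of 10 were called higher, beside 14.9% of all genes. There were 10 without 2-month replicate 2 and 3 without 18-month replicate 1, beside 23.3% and 11.2% of all genes. Of the neutrophil genes none of 12 was called in edgeR, and 2 had an unadjusted p below 0.05. DESeq2 called 10 higher and limma 12, where they called 9556 and 8624 of all genes in either direction. Each of the 12 was higher in every 18-month library, an order that 35.6% of all genes tested showed. In edgeR all 12 were called higher without 2-month replicate 2, beside 23.3% of all genes. Erythroid genes were called higher in 3 of 10, in 9 by DESeq2 and in 10 by limma. These other tools called 9556 and 8624 of all genes in either direction. In edgeR 10 erythroid genes were called higher without 2-month replicate 2 and none without 18-month replicate 1. Of all genes, 14.9%, 23.3% and 11.2% were called higher in these 3 edgeR fits. The part of bone and marrow cells in 2-month replicate 2 in the values of Bglap, Bglap2, Dmp1 and Phex was not tested.

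In 18-month replicate 1, where Sost and Mepe were high, 12 of 15 chondrocyte genes were above 2 times the mean of 18-month replicates 2 and 3, with a median ratio of 4.71, beside 7.92% of all genes. So were 5 of 8 fibroblast and tendon, 2 of 5 hypertrophic chondrocyte, 2 of 6 skeletal muscle and 6 of 28 other lineage genes. No osteoclast, macrophage, neutrophil, erythroid or marrow stroma and adipocyte gene was. Sost was 2.16 times and Mepe 2.03 times that mean, and they were the only bone genes above 2 times it. Whether chondrocytes or other cells have a part in these values was not tested.

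**Figure D4:**
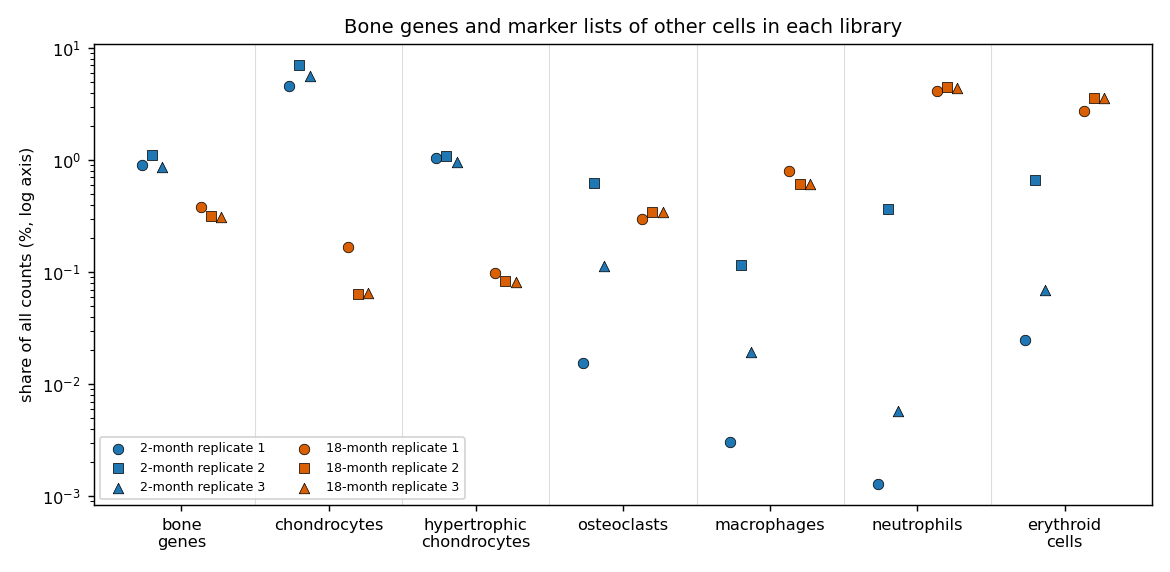
Share of all counts (%, log axis) taken by the 10 bone genes and by marker lists of other cell types in each library. The bone share was lower in every 18-month library, and both chondrocyte lists fell further. Replicate 2 of the 2-month libraries was the highest young library for every list shown.

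Other genes of the lineage followed either the genes that fell or osteocalcin in several cases. Of a list of 30, 29 were in the table and tested, Dspp was not analysed here, and 11 were called lower and 1 higher, beside 21.3% and 14.9% of all genes. The median log2 fold change was -0.82. Without 2-month replicate 2 the same 11 were lower and 8 were higher, beside 21.3% and 23.3% of all genes, with a median of 0.01. Without 18-month replicate 1 there were 12 lower, Dlx6 being added, and 1 higher, beside 20.3% and 11.2% of all genes.

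Transcription factors of early osteoblasts fell. Runx2, the regulator upstream of Sp7, had 19.2, 22.7 and 19.2 FPKM at 2 months and 5.82, 5.23 and 5.41 at 18 months (log2 fold change -1.97, SE 0.10, adjusted p = 0.000706). Dlx5, a homeodomain factor of the same lineage, had 30.5, 22 and 22.6 FPKM against 4.69, 2.19 and 2.59 (-3.08, SE 0.34, adjusted p = 0.00186). Both are also expressed by hypertrophic chondrocytes. Atf4, a stress-response and osteoblast factor, had a log2 fold change of -0.85 (SE 0.20, adjusted p = 0.0156), which did not reach the fold limit.

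Among matrix genes, Sparc (osteonectin) and Omd (osteomodulin) fell with Ibsp. Sparc had 4447, 6274 and 6325 FPKM at 2 months and 406, 377 and 373 at 18 months (log2 fold change -3.96, SE 0.39, adjusted p = 0.00153). Omd had 493, 272 and 691 FPKM against 12.4, 5.60 and 5.93 (-6.03, SE 0.59, adjusted p = 0.00148). Lox, which cross-links collagen, fell by 2.58 on the log2 scale (SE 0.18, adjusted p = 0.000881), and Smpd3, a sphingomyelinase of mineralising cells, by 5.19 (SE 0.49, adjusted p = 0.00138). Tnfrsf11b, the osteoclast inhibitor osteoprotegerin, fell by 2.82 (SE 0.66, adjusted p = 0.016), a call that was lost without 18-month replicate 3 (adjusted p = 0.0526) and against a fold change of 2 (0.0511). Without 18-month replicate 1, where it was 4.19 times the mean of the other aged libraries, it fell by 3.83 (adjusted p = 0.00284). The other members called lower, named after their values were seen, were Msx2, Fam20c, Irx5 and Dkk1.

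The collagen genes of bone, Col1a1 and Col1a2, followed osteocalcin. Col1a1 had 29.3, 1420 and 60.0 FPKM at 2 months and 285, 279 and 286 at 18 months (log2 fold change -0.82, SE 1.36, adjusted p = 0.638). Col1a2 had 23.0, 817 and 44.5 FPKM against 218, 232 and 236 (-0.36, SE 1.26, adjusted p = 0.827). Without 2-month replicate 2 both rose, by 2.56 (SE 0.35, adjusted p = 0.0018) and 2.66 (SE 0.34, adjusted p = 0.00136) on the log2 scale. Type I collagen is also made by fibroblasts and tendon cells, so it does not mark bone alone. Bglap3, Ifitm5, Cdh11 and Wnt1 were among the other members called higher without that library and not with it, and Fgf23 was called higher in both fits.

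Fgf23, the phosphate hormone of osteocytes, was the single gene of this list called higher in the comparison of all libraries. It had 0 counts in each 2-month library and 48, 73 and 85 counts at 18 months, or 0.391, 0.638 and 0.730 FPKM. Set against a floor of 3 counts per library, its level was at least 20.1-fold higher at 18 months (adjusted p = 0.00389). The call was lost with a replicate block (adjusted p = 0.0503) and in limma on log2(FPKM + 1), where its log2 fold change was 0.66, and a filter on a mean FPKM of at least 1 removed the gene. The transcript was rare, with fewer counts in each aged library than Phex had in any library.

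**Figure D5:**
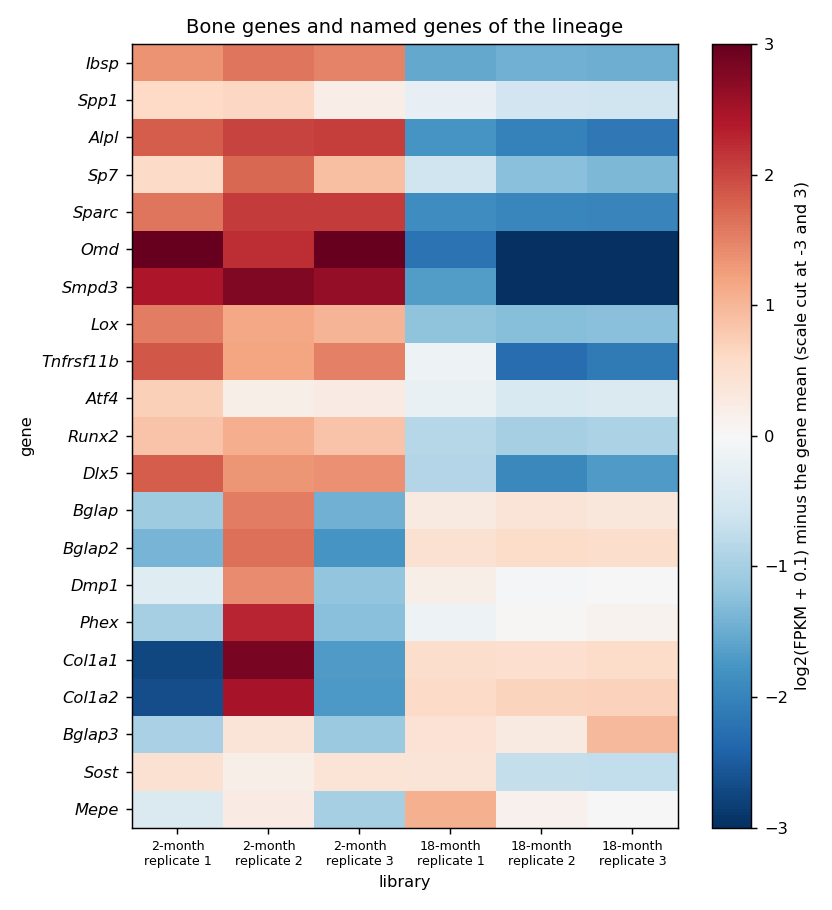
Level of the bone genes and the named genes of the lineage in each library, as log2(FPKM + 0.1) minus the gene's mean over the 6 libraries. Genes from Ibsp to Dlx5 were higher in all 2-month than in all 18-month libraries. Genes from Bglap to Col1a2 had every 18-month library between 2-month replicate 2 and the other 2-month libraries.

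Correlation over the 6 libraries, on log2 CPM, grouped the members in a like way. The points share library, depth and age, so the values are descriptions. Pearson's r was 0.997 between Ibsp and Alpl, 0.957 between Alpl and Sp7 and 0.949 between Ibsp and Spp1. It was 0.993 between Bglap and Bglap2, which share sequence, 0.94 between Bglap and Phex and 0.952 between Phex and Dmp1. Across the sets it was -0.29 between Ibsp and Bglap and 0.05 between Ibsp and Phex. Sost was nearest to Spp1 among the members (0.803), and Mepe to Bglap2 (0.692).

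The search for genes most like each member by the same r covered 13890 genes whose mean FPKM reached 1, and the 3 nearest were taken for each. For Ibsp these were Prkg2 (0.9995), Gpx7 and Mapkbp1, and for Alpl they were Spag9 (0.9995), Adgrg6 and Filip1. Sp7 was nearest to Ankrd50 (0.9986), Gpr153 and Fat1, and Spp1 to Timp1 (0.9979), Ltbp2 and Sh3bp4. Bglap was nearest to Zbtb5 (0.9949), Metrnl and Ifitm5, while Bglap2 was nearest to Ifitm5 (0.9982), Cdh2 and Metrnl. Ifitm5, a membrane protein of osteoblasts, had 1.15, 14.8 and 0.756 FPKM at 2 months and 5.66, 5.63 and 5.08 at 18 months, so its aged libraries also lay between 2-month replicate 2 and the other young ones. For Phex the list began with Chn1 (0.9928) and Glb1, and for Dmp1 they were Bcor (0.9723), Zfp595 and Adgra2. Sost was nearest to Creld2 (0.9994), Gm48496 and Hbegf, and Mepe to Lhpp (0.9878), Prkaca and Wrap73. Such likeness over 6 libraries says nothing of shared function.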

How the data were processed

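Poly(A) RNA of articular cartilage from 3 libraries of 2-month and 3 of 18-month wild-type mice was sequenced with strand-marked, paired 150-base reads and molecular identifiers. The submitters' processing notes name cutadapt 1.9, HISAT2 2.0.4, UMI-tools, StringTie 1.3.4d, DESeq2 and edgeR. Whether reads were deduplicated, and the genome build and annotation, are not given in the sources used here. Raw counts and FPKM, as deposited by the authors, stand side by side for every library, and 0 columns of library values were left out. Of 33971 genes, 33865 were found in GENCODE M21 (GRCm38), 91.3% of them with identical coordinates. Sp7 and Phex differed and are given as in the table.

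Counts were scaled by TMM and tested in edgeR 4.0.16 (quasi-likelihood, filterByExpr, Benjamini-Hochberg adjustment, R 4.3.3), with all 6 libraries and age as the only term. Fold changes come from counts, and levels between genes from FPKM. Standard errors were taken from the fold change and its F statistic. Alternatives used other scaling and filters, DESeq2 1.42.0, limma 3.58.1 on log2(FPKM + pseudocount), a test against a fold change of 2, a replicate block and leaving out each library. Summing 18-month replicates 2 and 3, and leaving out 2-month replicate 2 with 18-month replicate 1, were added after seeing the data. The scripts were tested on simulated data. Differences between genes were not tested.

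The members, the gene lists and the tests were chosen with earlier results of these data known. All 10 bone genes are described. Of the other lineage genes the 8 with the highest mean FPKM are named, plus Runx2, Dlx5, Bglap3, Fgf23 and Dspp, and of each marker list up to 3. Some genes that this rule covers are not reported here. Promoter windows are from RefSeq (GRCm38.p6).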

Additional observations from a re-analysis of the deposited data

How the results depend on the processing

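Direction and call were kept in all 18 alternatives for Ibsp, Alpl and Sp7, and the direction was kept in all 18 for Spp1, Sost and Mepe. The count of all genes called, 7401, was 4033 when tested against a fold change of 2 and 5640 to 9583 with 1 library left out. Without both 2-month replicate 2 and 18-month replicate 1 it was 9778. The bone genes called higher, none with all libraries, were 3 without both 2-month replicate 2 and 18-month replicate 1 (Bglap, Bglap2 and Phex), and 0 to 4 with 1 library left out; those called lower were 3 to 5. Among the other lineage genes, the 1 called higher became 0 with a mean FPKM of at least 1, with limma on log2(FPKM + 1) and with a replicate block, 7 without both libraries and 1 to 8 with 1 left out, and those lower were 13 without both libraries and 10 to 12 with 1 left out. The sign of Bglap turned in 10 alternatives: its log2 fold change was 0.055 with median-of-ratios size factors, 0.009 with total counts, 0.066 in DESeq2, 0.648, 0.644 and 0.649 in limma with pseudocounts of 0.1, 1 and 0.01, 1.51 without both libraries, and -0.439 to 1.475 with 1 left out. The limma values, in the same order, were 0.088, 0.08 and 0.089 for Dmp1, 1.061, 1.044 and 1.063 for Col1a1, and 1.274, 1.252 and 1.277 for Col1a2, while Phex turned in limma with 0.01 only, at 0.003. Without both libraries they were 0.604 for Dmp1, 1.143 for Phex, 2.575 for Col1a1 and 2.705 for Col1a2. With 1 library left out the ranges were -0.315 to 1.989 for Bglap2, -0.764 to 0.674 for Dmp1, -1.44 to 1.068 for Phex, -1.375 to 2.563 for Col1a1 and -0.906 to 2.657 for Col1a2. The upper end was without 2-month replicate 2 in each. Replicate numbers did not pair the libraries: deviations from the age means correlated at 0.0337, 0.0442 and -0.0241 between same-numbered libraries. With the number as a replicate block, log2 fold changes were 0.615 for Bglap, 0.034 for Dmp1, 0.017 for Phex, 1.293 for Col1a1 and 1.436 for Col1a2, none called, and the adjusted p of Fgf23 was 0.0503. Without the 100 most abundant genes of the table, the bone genes' mean share of counts was 0.303% at 2 months and 0.116% at 18 months. Depth limits Fgf23 and Bglap3, which had under 100 counts per library. The cause of these changes was not tested.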

Other observations

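The remaining marker lists describe what else the cartilage samples held beside the bone genes. Of skeletal muscle genes 8 were tested and 6 were called lower, beside 21.3% of all genes. The 10 listed took 0.00871% to 0.0171% of counts at 2 months and 0.000718% to 0.000937% at 18 months. A list of 8 fibroblast and tendon genes took 3.21%, 1.45% and 3.49% of counts in the 2-month libraries and 0.709%, 0.146% and 0.144% in the 18-month libraries. By this share 2-month replicate 2 was the lowest young library and 18-month replicate 1 the highest aged library. Of the 8, 5 were called lower and 1 higher, beside 21.3% and 14.9% of all genes. Without 18-month replicate 1 there were 6 and none, beside 20.3% and 11.2%. A list of 8 marrow stroma and adipocyte genes took 0.00746%, 0.0498% and 0.00631% at 2 months and 0.156% to 0.172% at 18 months. Of these genes 2 of 7 tested were called higher, and 7 of 7 without 2-month replicate 2, beside 14.9% and 23.3% of all genes.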
